A study of Drosophila melanogaster with 5 samples.

Results

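The genes described here build the centriole and the basal body of the sperm in Drosophila melanogaster. They were chosen by symbol from a fixed list of 10 genes of centriole duplication and the sperm basal body (SAK, asl, ana2, Sas-6, Sas-4, ana1, ana3, cnn, Plp and unc), and 8 of these 10 symbols were matched among the 12847 rows of the deposited table. Sas-6 and Plp were not analysed here. RNA was sequenced from ribosomes of testes of the Batumi strain, from adult males whose age the labels give as 1-2 without a unit, kept at 25 °C. Ribosomes from extracts of 1000 testes were pelleted and immunoprecipitated through βNACtes, a β-subunit of the ribosome-bound chaperone NAC that is made in germ cells (3 libraries, called βNACtes IP), or taken without precipitation (2 libraries, called total ribosomes). No transgene, mutation or drug is named for any library, and each extract pools many animals.

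The table holds 1 mean value per gene for each group, which is treated as FPKM (fragments per kilobase of transcript, scaled by library size) averaged by the authors over the libraries. No value of a separate library was analysed, so no value below has a replicate error, no difference was tested, and depth is unknown. The log2 ratio is that of FPKM + 0.1 in the βNACtes IP over total ribosomes, minus the median of 0.73 over the 9793 genes kept, whose 2 values average 1 FPKM or more. It is called the relative log2 ratio, and it understates the change of low genes. A gene is called higher where this ratio is at least 1 and lower where it is at most -1. Subtracting the median sets 50.0% of all genes above 0 by construction.

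The centriole is a short cylinder of microtubules that organises the centrosome and, once docked at a membrane, templates a cilium or flagellum as a basal body. A new centriole forms beside an old one when the kinase SAK (Plk4) is held there by the scaffold Asl and phosphorylates Ana2, which with Sas-6 builds the cartwheel, the core to which Sas-4 adds the microtubule wall. Ana1 then lets the new centriole recruit pericentriolar material, whose scaffold is Cnn. In fly spermatocytes the centrioles grow unusually long and dock at the plasma membrane before the meiotic divisions, and each spermatid inherits a basal body from which the sperm tail grows.

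Accessory gland protein genes, which belong to somatic glands next to the testis, had between 258.88 and 2368.13 FPKM in the βNACtes IP and between 544.75 and 6633.1 FPKM in total ribosomes (5 of 6 markers matched). All 5 were called lower. Each count of markers called higher or lower here stands beside 26.4% higher and 29.2% lower of all genes kept. Set against the 500 genes nearest in exonic length, all 5 were past -1, as were 27.1% of all genes. Set against the 500 genes nearest in mean level, Acp63F (-1.41) and Acp26Ab (-1.33) were past -1, as were 29.2% of all genes. On that scale Acp26Aa (-0.80), Acp62F (-0.65) and Acp36DE (-0.09) were not. Of the germline and spermatocyte markers 9 of 10 were matched, with between 1.26 and 3611.65 FPKM in the βNACtes IP and between 0.895 and 2115.61 FPKM in total ribosomes. Of these 9, 2 were called higher and 2 lower, with a median relative log2 ratio of -0.28. Somatic cyst and hub cell markers (5 of 6 matched) had at most 8.53 FPKM in the βNACtes IP and at most 4.675 FPKM in total ribosomes. Of the 4 kept, 2 were called higher (eya and zfh1) and 1 lower (Fas3). The cyst cell factor tj, which was not kept, had 0.32 FPKM in the βNACtes IP and was listed at 0 in total ribosomes. Muscle sheath markers (6 of 6) had between 4.31 and 80.76 FPKM in the βNACtes IP and between 1.805 and 101.4 FPKM in total ribosomes. Of these 6, 1 was called higher and 1 lower. The part of these cell types in the values of the centriole genes was not tested. In such bulk material fewer cells of a type and less RNA per cell cannot be told apart.

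All 8 centriole and basal body genes had more FPKM in the βNACtes IP than in total ribosomes, and all 8 relative log2 ratios were above 0, from 0.17 for ana3 to 2.69 for ana1. Their median was 0.61. With the call rule, 2 of the 8 genes were higher, ana1 and asl, whereas 26.4% of all genes kept were higher. None of the 8 was lower, whereas 29.2% of all genes were. The share of higher genes is thus near the background. Without centring 6 of the 8 were higher, against 43.6% higher and 18.3% lower of all genes, and with TPM scaling (each value as a share of its column) 8 of 8 were, against 62.1% higher and 8.75% lower.

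**Figure D1:**
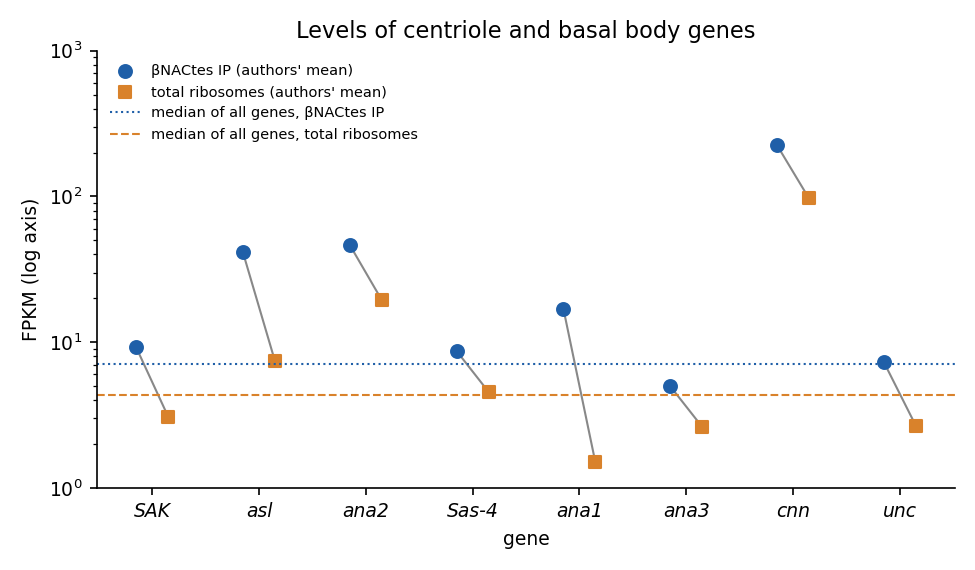
Authors' mean FPKM (log axis) of the 8 genes, ordered by role, for the βNACtes IP (circles, left) and for total ribosomes (squares, right), with the median of all 12847 rows in each group as horizontal lines. Each gene is higher in the βNACtes IP before centring, cnn has the highest level in both groups, and ana1 has the steepest line.

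The kinase and its scaffold start the duplication of the centriole. SAK (FBgn0026371, chromosome arm 3L from 21512141 to 21515887 on the minus strand of BDGP6) encodes Plk4 and had 9.20 FPKM in the βNACtes IP, against 3.075 FPKM in total ribosomes. It ranked 5808 of 12847 rows in the βNACtes IP, against 7031 in total ribosomes, so this regulator lay near the middle of the table in both groups. Its relative log2 ratio was 0.82, the highest of the genes that were not called. Of its exonic length of 3371 bp, 609 bp (18.1%) overlap exons of M6 on the opposite strand. M6 itself was listed at 0 in the βNACtes IP and had 0.695 FPKM in total ribosomes, and whether strand was used in counting is not given in the sources used here.

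Asl binds SAK at the old centriole and is also needed for the pericentriolar material. The gene asl (FBgn0261004, 3R from 5603236 to 5606543, minus strand, 3187 exonic bp) had 41.24 FPKM in the βNACtes IP, against 7.39 FPKM in total ribosomes, a deposited ratio of 5.58. Its relative log2 ratio was 1.73, which places it at percentile 86.6 of all genes kept. Total ribosomes would need 12.4 FPKM, 1.67 times the deposited mean, for asl to fall to the limit of the call. No exon of another gene overlaps asl in the annotation. The gene thus stood 4.48 times above SAK in the βNACtes IP and 2.40 times above it in total ribosomes.

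Ana2, the counterpart of vertebrate STIL, is the substrate through which SAK starts the cartwheel. The gene ana2 (FBgn0027513, 2R from 8898729 to 8900211, minus strand) is the shortest of the 8, with 1432 exonic bp and a longest annotated protein of 420 residues. It had 46.45 FPKM in the βNACtes IP, against 19.435 FPKM in total ribosomes, and a relative log2 ratio of 0.52. This was the next to highest level of the 8 in both groups. Its level was 5.05 times that of SAK in the βNACtes IP and 6.32 times that of SAK in total ribosomes. The overlap with exons of Sec31 on the opposite strand covers 70 bp (4.89%).

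Sas-4, the counterpart of vertebrate CPAP, builds the microtubule wall around the cartwheel. The gene (FBgn0011020, 3R from 7151367 to 7154219, plus strand, 2802 exonic bp, 901 residues) had 8.69 FPKM in the βNACtes IP, against 4.555 FPKM in total ribosomes. Its relative log2 ratio was 0.19, so it lay close to the median gene. Sas-4 and SAK had similar levels, with SAK at 1.06 times Sas-4 in the βNACtes IP and 0.675 times Sas-4 in total ribosomes.

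Ana1, the counterpart of vertebrate CEP295, is needed for the new centriole to become a centrosome and for the length of centrioles in spermatocytes. The gene ana1 (FBgn0262167, 3R from 24530576 to 24536395, plus strand, 5610 exonic bp, 1729 residues) had 17.00 FPKM in the βNACtes IP, against 1.495 FPKM in total ribosomes. The deposited ratio was 11.4 and the relative log2 ratio 2.69, at percentile 95.1 of all genes kept. It was the lowest of the 8 genes in total ribosomes (rank 8208 of 12847 rows) and the fourth highest in the βNACtes IP (rank 4498). Total ribosomes would need 5.05 FPKM, 3.38 times the deposited mean, for ana1 to fall to the limit of the call. Its exons overlap Cftr on the opposite strand by 192 bp (3.42% of the exonic length), a gene with 4.88 FPKM in the βNACtes IP and 2.95 FPKM in total ribosomes. The level of ana1 was 3.41 times that of ana3 in the βNACtes IP and 0.571 times that of ana3 in total ribosomes, the widest change in proportion among the 28 pairs of these genes. The change against Sas-4 was almost equal, at 1.96 times in the βNACtes IP and 0.328 times in total ribosomes.

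Ana3, the counterpart of vertebrate Rotatin, keeps centrioles and basal bodies structurally intact. The gene ana3 (FBgn0266111, 2R from 12344983 to 12351325, plus strand) has the longest exonic sequence of the 8 (6284 bp) and encodes 1977 residues. It had 4.99 FPKM in the βNACtes IP, against 2.62 FPKM in total ribosomes. Its relative log2 ratio of 0.17 was the lowest of the 8. It was also the lowest of the 8 in level in the βNACtes IP, at rank 7096 of the table.

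Cnn forms the scaffold of the pericentriolar material, and isoforms made in testes coat the mitochondria of spermatids, where they recruit microtubule nucleating complexes. The gene cnn (FBgn0013765, 2R from 13439314 to 13450475, minus strand, 6196 exonic bp) has 12 annotated transcripts, and the table gives 1 value for all of them. It had 225.25 FPKM in the βNACtes IP, against 97.015 FPKM in total ribosomes, and ranked 642 in the βNACtes IP, against 1184 in total ribosomes. Its relative log2 ratio was 0.48. Of the summed FPKM of the 8 genes, cnn took 62.5% in the βNACtes IP, against 70.2% in total ribosomes. The isoforms of the centrosome and of the mitochondria were not separated here, so the level cannot be assigned to either.

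Unc is found at the centrioles of spermatocytes and at the basal bodies and is needed for sperm and for the cilia of sensory neurons. The gene unc (FBgn0003950, X from 21111414 to 21116914, minus strand, 4775 exonic bp, 1386 residues) had 7.32 FPKM in the βNACtes IP, against 2.675 FPKM in total ribosomes. Its relative log2 ratio was 0.69. The median of all rows was 7.05 FPKM in the βNACtes IP and 4.32 FPKM in total ribosomes, so unc lay close to it in the βNACtes IP and below it in total ribosomes. The order of the 8 genes was cnn, ana2, asl, ana1, SAK, Sas-4, unc and ana3 in the βNACtes IP, and cnn, ana2, asl, Sas-4, SAK, unc, ana3 and ana1 in total ribosomes. Apart from ana1, only SAK and Sas-4 changed places. The highest gene was 45.1 times the lowest in the βNACtes IP and 64.9 times the lowest in total ribosomes. Without replicate values, neighbours in either order cannot be told apart beyond their spread.

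A mean over 2 libraries limits how high either of them can be, since no FPKM is below 0. If the column of total ribosomes is a plain mean of its 2 libraries, neither can exceed 2.99 FPKM for ana1 or 14.8 FPKM for asl, whereas at least 1 library of the βNACtes IP reached the mean of 17.00 FPKM for ana1 and 41.24 FPKM for asl. The βNACtes IP mean lay above this bound for 6 of the 8 genes (SAK, asl, ana2, ana1, cnn and unc), without centring, and for 43.9% of all genes kept. For Sas-4 and ana3 it lay below the bound. The bound is 2 times the mean of total ribosomes, so the 6 genes above it are those already counted as higher without centring. It is no further evidence for them. The bound says nothing of the spread within the βNACtes IP.

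Most of these 8 genes are long, and long genes had higher ratios in this comparison. Of the 8 genes, 6 lie in the longest quartile of the genes kept (2423 genes of 2821 to 58996 exonic bp), where the median relative log2 ratio was 0.85. In that quartile 45.4% of genes were higher and 10.1% lower, and of the 6 centriole genes there 2 were higher and none lower. Sas-4 fell just outside it with 2802 bp. In the shortest quartile (76 to 989 bp) the median was -0.65, and none of the 8 genes lies there.

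**Figure D2:**
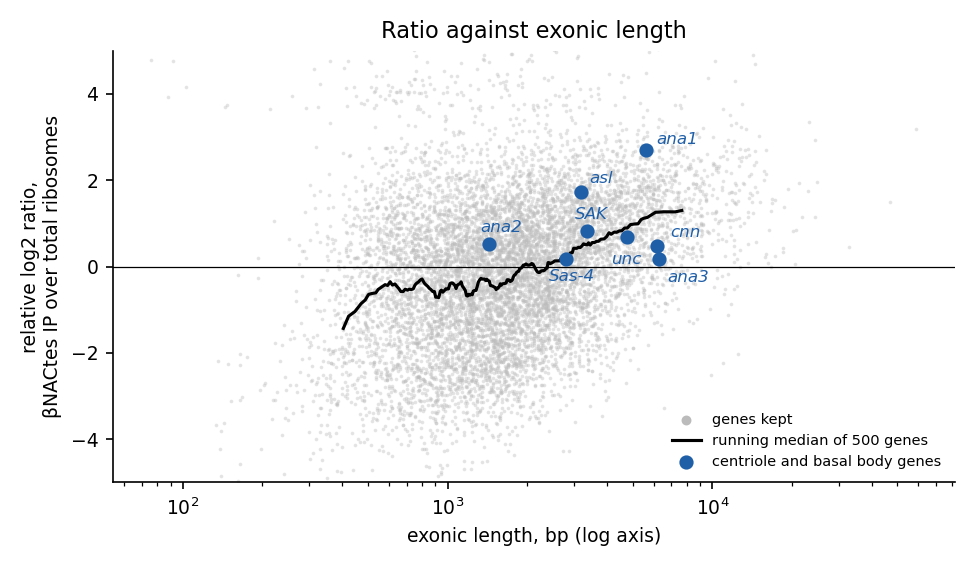
Relative log2 ratio of the βNACtes IP over total ribosomes against exonic length (log axis) for the genes kept (grey), with the running median of 500 genes (line) and the 8 centriole and basal body genes (blue). The axis leaves out 232 genes with ratios beyond 5 in size; ana1, asl, SAK and ana2 lie above the line, while cnn, ana3, unc and Sas-4 lie on or below it.

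When each gene was set against the median of the 500 genes nearest to it in exonic length, 4 of the 8 were above 0 (49.7% of all genes) and 4 below it. The log2 ratio was then 1.58 for ana1, 1.27 for asl, 0.84 for ana2 and 0.32 for SAK. It was -0.05 for Sas-4, -0.21 for unc, -0.74 for cnn and -1.08 for ana3. Thus ana1 and asl stayed past the limit, as did 24.8% of all genes, and ana3 passed it in the other direction, as did 27.1% of all genes. The median of the 8 was 0.14 on this scale. The part of length in the ratios was not tested. Set against the 500 genes nearest in mean level, a scale chosen after seeing the data, the 8 ratios ranged from 0.11 (ana3) to 2.87 (ana1), and again ana1 and asl alone of the 8 were past the limit, as were 26.3% of all genes.

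**Figure D3:**
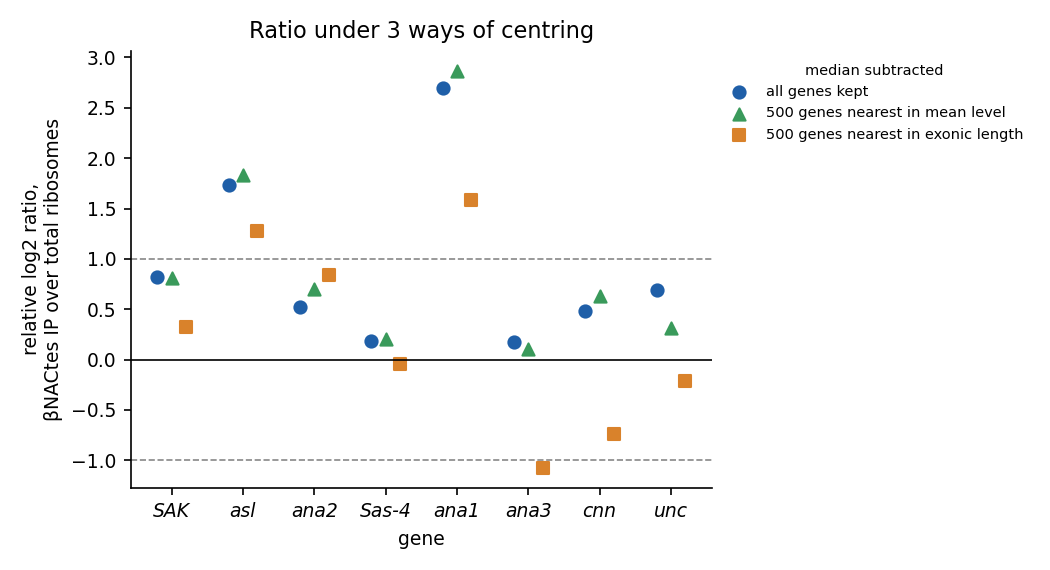
Log2 ratio of the βNACtes IP over total ribosomes for the 8 genes, minus the median of all genes kept (circles), of the 500 genes nearest in mean level (triangles) or of the 500 genes nearest in exonic length (squares), with dashed lines at 1 and -1. Both ana1 and asl stay above 1 on all 3 scales, and ana3 falls below -1 only when set against genes of its length.

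Other genes of the centriole and of its partners were taken from lists set by function, and each count below stands beside 26.4% higher and 29.2% lower of all genes kept. Among 10 other centriole proteins, all in the table, 6 were higher and 2 lower, with a median of 1.21 (1.27 without Rcd4, which was at 0 in the βNACtes IP). The higher ones were Alms1a, Alms1b, Cp110, Cep135, Poc1 and Cep97. Alms1a (listed as CG12179), a paralog of Alms1b next to it, had 20.3 FPKM in the βNACtes IP, against 2.255 FPKM in total ribosomes, the highest ratio of this list (2.38). The 2 paralogs are alike in sequence, so how reads were divided between them is uncertain. Cep97, which with Cp110 caps the growing end of the centriole, had 340.63 FPKM in the βNACtes IP, against 92.77 FPKM in total ribosomes, a level above that of cnn in the βNACtes IP and close to it in total ribosomes. Cep135 (bld10), a cartwheel and wall protein of the spermatocyte centriole, had 28.44 FPKM in the βNACtes IP, against 6.355 FPKM in total ribosomes (1.41). Rcd4, a protein of new centrioles, was listed at 0 in the βNACtes IP and at 22.8 FPKM in total ribosomes, and no ratio is given for it. The other lower gene was Gorab (CG33052) with 1.58 FPKM in the βNACtes IP, against 1.975 FPKM in total ribosomes (-1.03). Set against genes of their length, 5 of the 10 were past 1 (24.8% of all genes) and 1, Rcd4, past -1 (27.1%). Cep135 (0.86) and Cep97 (0.79) then fell below 1, and Cep89 (1.14), which was not called before, passed it.

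Of the genes that act on centrioles as enzymes, 5 of 8 were matched (polo, slmb, tws, mts and Pp2A-29B), and 2 of them were higher. Slmb is the part of a ubiquitin ligase that marks SAK for destruction. The gene slmb had 70.18 FPKM in the βNACtes IP, against 5.98 FPKM in total ribosomes, with a relative log2 ratio of 2.80, and 2.32 against genes of its length. Tws is the regulatory subunit of the phosphatase PP2A that stabilises SAK. The gene tws had 27.57 FPKM in the βNACtes IP, against 4.075 FPKM in total ribosomes (2.00, and 1.01 against genes of its length). The catalytic subunit mts (0.32) and the scaffold subunit Pp2A-29B (0.23) of the same phosphatase were near the median, and Pp2A-29B had the lowest ratio of the list. The kinase polo had 95.38 FPKM in the βNACtes IP, against 30.62 FPKM in total ribosomes (0.91), the highest level of this list in both groups.

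Genes of the γ-tubulin complexes and the pericentriolar material, which nucleate microtubules around the centriole, were matched for 9 of 10 and kept for 8. Of these 8, 3 were higher and none lower (26.4% and 29.2% of all genes), with a median of 0.56. One of them, gammaTub23C, had 16.13 FPKM in the βNACtes IP and was listed at 0 in total ribosomes. No ratio is given for it, and without it 2 of 7 genes were higher and the median was 0.13, so this gene decides the list's median. The other higher genes were Grip71, which had 7.26 FPKM in the βNACtes IP, against 1.84 FPKM in total ribosomes (1.19), and spd-2, a scaffold that works with cnn, which had 19.14 FPKM in the βNACtes IP, against 5.59 FPKM in total ribosomes (1.03). Grip128 had the lowest ratio, with 7.3 FPKM in the βNACtes IP, against 7.5 FPKM in total ribosomes (-0.77). Mzt1 (CG42787) had 66.10 FPKM in the βNACtes IP, against 36.24 FPKM in total ribosomes, the highest level of this list there. Set against genes of their length, 4 of the 8 were past 1 (24.8% of all genes) and 2 past -1 (27.1%). Those past -1 were Grip84 (-1.31) and Grip128 (-1.27). Grip71 (1.30) and gammaTub23C stayed past 1 and spd-2 (0.45) fell below it. Mzt1 (1.20) and Grip75 (1.02), which were not called before, passed it.

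The transition zone lies at the end of the basal body and gates the flagellum. Of its 9 genes 7 were matched and kept, 1 was higher and none lower, with a median of 0.36. The higher gene was Cep290 (CG13889), which had 58.02 FPKM in the βNACtes IP, against 6.145 FPKM in total ribosomes (2.49, and 1.24 against genes of its length). B9d1 (CG14870) had the lowest ratio and the highest level, 209.91 FPKM in the βNACtes IP, against 181.97 FPKM in total ribosomes (-0.52).

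Genes that hold the basal body to the spermatid nucleus were matched for 5 of 6, with 1 higher, none lower and a median of 0.07. The higher one was spag4, a protein of the nuclear envelope, with 4.74 FPKM in the βNACtes IP, against 1.21 FPKM in total ribosomes (1.16). The lowest ratio was that of asun (-0.63), with 2.36 FPKM in the βNACtes IP, against 2.2 FPKM in total ribosomes. The gene yuri had 341.3 FPKM in the βNACtes IP, against 195.795 FPKM in total ribosomes (0.07), the highest level of this list. Set against genes of their length, the median of the 5 was -0.70, and 2 of them were above 0 (49.7% of all genes). On this scale spag4 (1.57) was past 1 (24.8% of all genes) and none was past -1 (27.1%).

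Intraflagellar transport builds the cilia of sensory neurons in flies and is not needed for the sperm flagellum. Its genes were matched for 11 of 15 and kept for 8, with levels of at most 19.77 FPKM in the βNACtes IP and at most 5.6 FPKM in total ribosomes. Of the 8 kept, 3 were higher and none lower (26.4% and 29.2% of all genes), with a median of 0.51. Of these 3, rempA had 5.14 FPKM in the βNACtes IP and was listed at 0 in total ribosomes, so no ratio is given. Without rempA 2 of 7 genes were higher, with a median of 0.50. Of the other higher genes, IFT54 (CG3259) had 15.72 FPKM in the βNACtes IP, against 0.66 FPKM in total ribosomes (3.65), and Oseg1 had 19.77 FPKM in the βNACtes IP, against 3.975 FPKM in total ribosomes (1.56). Set against genes of their length, IFT54 (3.77) and rempA stayed past 1 and Oseg1 (0.66) fell below it. On this scale 2 of the 8 were past 1 (24.8% of all genes) and none past -1 (27.1%), with a median of 0.09. The lowest ratio was that of Oseg5 (-0.21), and nompB had 9.2 FPKM in the βNACtes IP, against 5.6 FPKM in total ribosomes, the highest level of the list there.

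**Figure D4:**
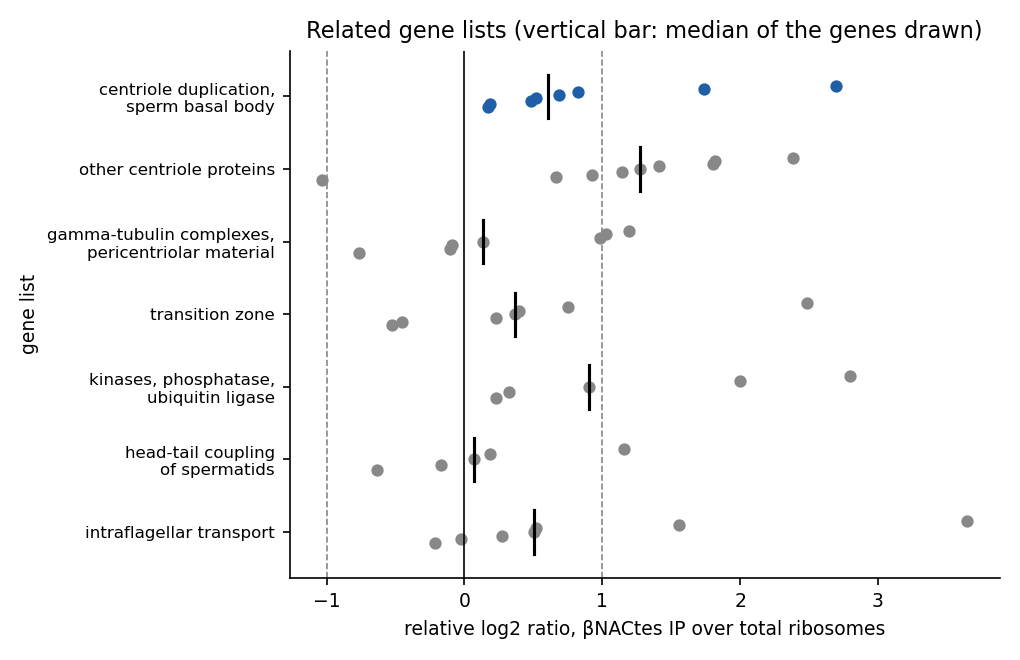
Relative log2 ratio of the βNACtes IP over total ribosomes for the genes of 7 lists that were kept and not listed at 0 (points), with the median of the points drawn (bars) and dashed lines at 1 and -1. The 8 centriole duplication and basal body genes (blue) all lie above 0, and 6 of the 9 other centriole genes drawn lie beyond 1.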

How the data were processed

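For each gene the authors deposited 2 means in FPKM (βNACtes IP, then total ribosomes) and a column of log2 ratios of their own, which was not used. The unit is not named. Value times exonic length in kilobases sums to 1098119 in the βNACtes IP, against 1098789 in total ribosomes. Summed without length, the columns differ (802728 for the βNACtes IP, 1435535 for total ribosomes), and the deposited values are therefore read as FPKM. The submitters' processing notes name TopHat2 2.0.14, Cufflinks 2.2.1, Bowtie and Bowtie2 and the dm3 build. The annotation used and the handling of multi-mapping reads are not given in the sources used here.

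Coordinates, transcripts, exonic lengths (merged exons) and overlaps come from Ensembl release 115 on BDGP6, matched by gene ID for 98.9% of rows, and no coordinates were converted. The sequences of these genes were not analysed. List genes were matched by symbol, by gene ID or, for Cep135, by a RefSeq synonym. The members and lists were chosen with earlier results of these data known. Named were all members and, of each list, the genes of the highest and lowest ratio and of the highest level in total ribosomes; other genes were named after their values were seen. A ratio against a column at 0 is not printed, but such a gene counts as called. The depth of the libraries is unknown. The alternatives were no centring, TPM (the share of a gene in its column), upper-quartile scaling, centring by length or level, a pseudocount of 1, other filters, leaving out overlapping genes and a call at 1.5. The scripts were tested on simulated data. Computations ran in Python 3.11.15 (pandas 2.3.3, numpy 2.4.6), and figures were drawn with matplotlib 3.10.9.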

Additional observations from a re-analysis of the deposited data

How the results depend on the processing

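The number of higher genes among the 8 depends on the scaling, and the background moves with it. With values as deposited, 6 of 8 were higher (43.6% of all genes) and their median log2 ratio was 1.34. With TPM scaling 8 of 8 were higher (62.1% of all genes) and the median was 2.16. Among genes with a mean of at least 10 FPKM, 3 of the 8 remained to be measured and 1 was higher (asl), as were 25.8% of all genes. Among genes without overlapping exons, 4 of the 8 were measured and 1 was higher (asl), as were 26.4% of all genes. The count of lower genes was 1 when each gene was set against genes of its length (ana3, at -1.08 against 0.17 before) and 0 in the other settings. Both ana1 and asl stayed higher in every setting that measured them. Of 63 values of single genes under these alternatives, 51 kept their side of the call, 11 passed it only in an alternative and 1 turned round (ana3). The 51 include Sas-4 (-0.05), unc (-0.21) and cnn (-0.74) set against genes of their length. These went from above 0 to below it without passing the limit. The ratio of the highest to the lowest gene was 45.1 in the βNACtes IP, against 64.9 in total ribosomes. No paired analysis was possible because the table holds 1 mean per group, and leaving out libraries was not run for the same reason. With depth unknown, the precision of the low values, such as 1.495 FPKM for ana1 in total ribosomes, cannot be given.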
